A study of Ovis aries with 10 samples.

Results

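Circular RNAs (circRNAs) are transcripts closed by a back-splice junction, in which a downstream splice site is joined to an upstream one. The genes RC3H2, TANK, LIMS1 and HADHA host circRNAs that have many junction reads in some muscle libraries and no entry at all in others. Their circRNAs were taken by host gene name, and 9 of the 8721 circRNAs with an entry in the series belong to these 4 of 3436 host genes. RC3H2 and TANK host 1 each, LIMS1 hosts 4 and HADHA hosts 3. The hosts were chosen by their junction reads, which were missing in some libraries, so the pattern of missing entries and the junction reads themselves are described without a test. Non-junction reads were not used to choose them.

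RNA was profiled in small-tailed Han sheep, in 5 libraries from ovariectomized females (OR-STH) and 5 from sham-operated females (STH), to study how estrogen bears on muscle growth. Ovariectomy removes the main source of estrogen. The tissue label is longissimus dorsi, a back muscle, but the labels also speak of primary myoblasts, a culture protocol and an estradiol series, and no library carries an estradiol dose or an age. The labels do not settle whether muscle or cultured myoblasts gave the RNA, nor do they say that each library comes from another animal, so a p-value measures only the spread between these samples. Of 10 muscle fiber markers, 9 hosted a listed circRNA and MYH7 did not. Of 8 myoblast and satellite cell markers, 3 did, while PAX7, PAX3, MYF5, MYOD1 and MYOG were at 0. No fibroblast or adipocyte marker hosted one, and 4 of 6 endothelial and 1 of 6 immune markers did. Some of these hosts rest on very few reads. MYH1, ACTA1 and CKM had 2 junction reads each over all libraries, against 12696 for TTN. Of the myoblast markers, DES had 3 and NCAM1 had 2, against 907 for MET, and the immune marker MRC1 had 5. A circRNA table is a weak check of cell type, since many genes form no circRNA.

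The 4 hosts have unrelated roles. RC3H2 encodes roquin-2, an RNA-binding ubiquitin ligase family protein that binds stem-loops in messenger RNAs and brings in the deadenylase complex that starts their decay. TANK encodes a scaffold that joins TRAF adaptor proteins to the kinases TBK1 and IKBKE in NF-kB and interferon signalling. LIMS1 encodes PINCH-1, an adaptor of LIM domains that links integrin-linked kinase to cell adhesions, which in muscle hold the fiber to its matrix. HADHA encodes the alpha subunit of the mitochondrial trifunctional protein, which carries out the later steps of long-chain fatty acid oxidation, a main energy source of resting muscle.

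Each circRNA was defined in the deposited table by its ends and by the blocks between them. The RC3H2 circRNA novel_circ_0004316 lies on chromosome 3 from 12869430 to 12871010 on the plus strand and joins 3 exon blocks of 147, 82 and 135 bases into 364 bases. The TANK circRNA novel_circ_0002768 lies on chromosome 2 from 148573567 to 148596062 on the minus strand. It joins 2 exons of 119 and 148 bases across a span of 22496 bases. The genome build behind these positions is not given in the sources used here.

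The HADHA circRNAs lie on chromosome 3, minus strand. novel_circ_0005229, from 33442873 to 33445594, joins exons of 57, 119 and 123 bases. novel_circ_0005231, from 33442873 to 33451456, keeps the same exon of 57 bases and joins it to exons of 120 and 139 bases farther away. novel_circ_0005232, from 33448484 to 33451456, holds those same 120 and 139 bases with an exon of 103 bases. So novel_circ_0005231 shares 1 end with each of the other circRNAs of HADHA.

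The LIMS1 circRNAs lie on chromosome 3, plus strand, in 2 separate regions. The circRNAs novel_circ_0005410, novel_circ_0005411 and novel_circ_0005412 start at 61959994 and hold the same first 3 blocks of 127, 72 and 97 bases, which the deposited table labels as intron. The shortest, novel_circ_0005410, ends with the third block at 61968189. novel_circ_0005411 adds a block of 82 bases and ends at 61973944. novel_circ_0005412 ends at 61988058, although its listed blocks stop at 61968189, so its inner structure is incomplete in the table. The remaining one, novel_circ_0005415 from 62019751 to 62021087, joins 3 exons of 67, 153 and 150 bases and shares no block with the others.

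**Figure D1:**
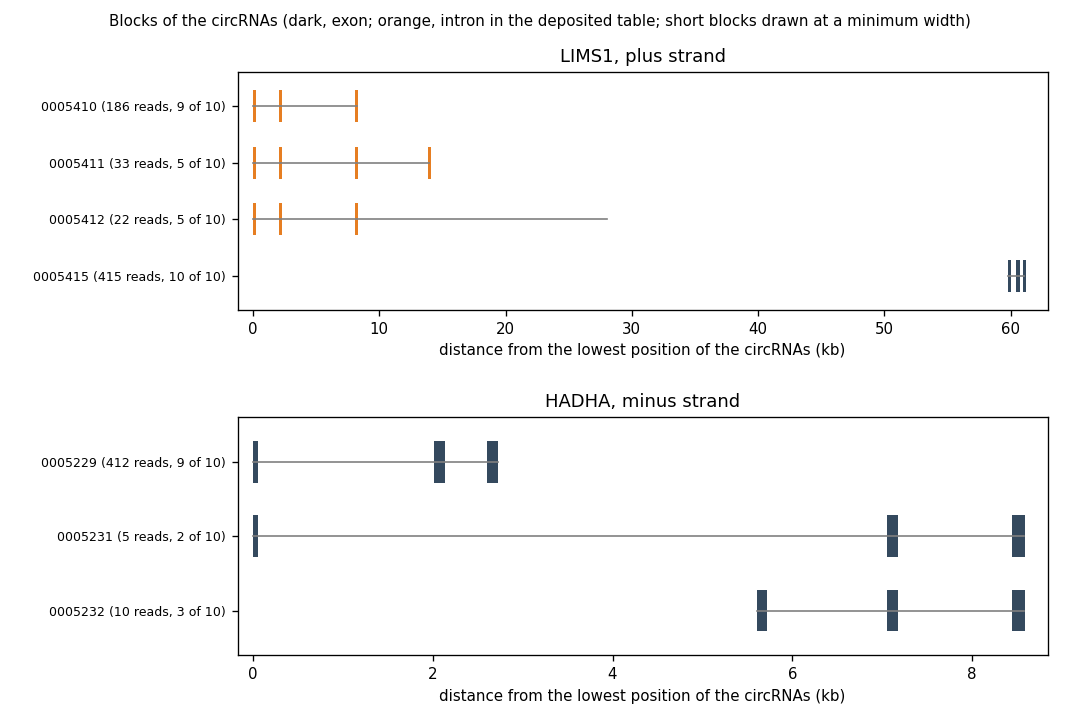
Blocks of the LIMS1 circRNAs (top) and the HADHA circRNAs (bottom) placed along the distance in kb from the lowest position of each host's circRNAs, with short blocks drawn at a minimum width; labels give the total junction reads and the number of the 10 libraries with an entry. The 3 LIMS1 circRNAs with intron blocks share a start, and novel_circ_0005231 of HADHA, with 5 reads, reaches from the one to the other of its neighbours.

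Libraries held 39045 to 67061 junction reads in the ovariectomized group and 35731 to 49887 in the sham group. The smallest listed count was 2 reads. A library without an entry is called not listed. It may hold 1 read or none, or the circRNA may have failed a filter that the sources do not give. Reads were scaled by library, as reads divided by each library's trimmed-mean scaled size relative to the geometric mean, and a library without an entry was entered as 0.

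Most circRNAs with at least 20 scaled reads on average had an entry in every library, and those with fewer lacked libraries more often. Of 373 circRNAs with a mean of at least 20 scaled reads, 339 were listed in all 10 libraries and 34 (9.12%) lacked at least 1. Of these 34, 21 lacked 1 library, 6 lacked 2 and 7 lacked 3 or more. From 10 to 20 scaled reads, where the TANK circRNA with a mean of 19.8 and novel_circ_0005410 of LIMS1 with 19.1 fall, 100 of 384 (26.0%) lacked a library. Among the 42 circRNAs with a mean of at least 100, which include the RC3H2 circRNA with 143.6, 3 lacked a library. Each library lacked some of the 373, from 4 to 8 in the ovariectomized group and from 3 to 10 in the sham group. Sham replicate 2 lacked 10, the highest number of the 10 libraries. HADHA and TANK are unlisted in ovariectomized replicate 1, which lacked 4 of the 373.

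**Figure D2:**
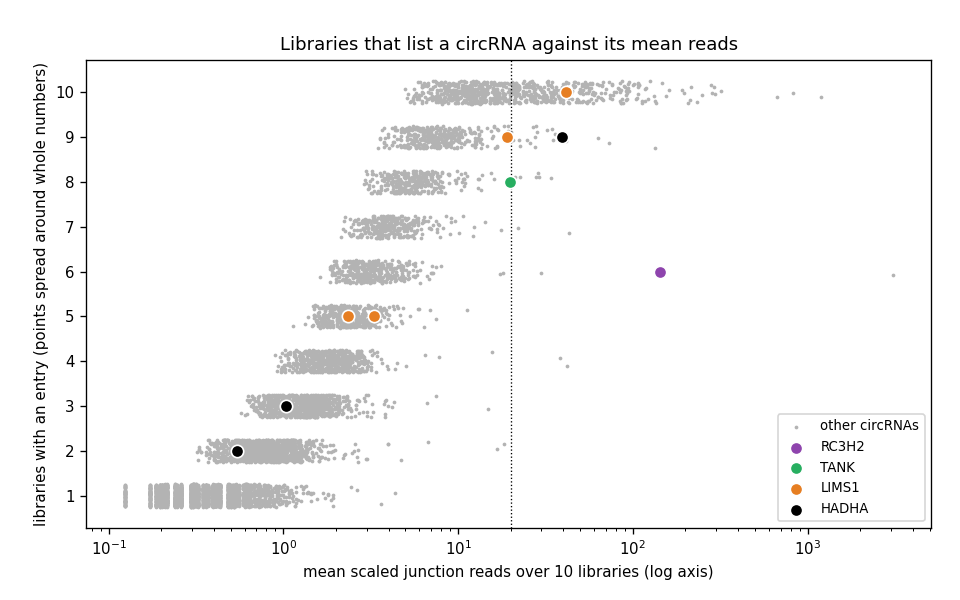
Number of libraries with an entry (vertical axis, points spread around whole numbers) against the mean scaled junction reads over 10 libraries (log axis) for all 8721 circRNAs; the dotted line marks 20 reads. The RC3H2 circRNA, listed in 6 libraries at a mean of 143.6, stands right of nearly all others listed in 6, while the rare LIMS1 and HADHA circRNAs sit among the many circRNAs with few reads.

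The RC3H2 circRNA was either abundant or not listed. It had 262 and 436 junction reads in ovariectomized replicates 1 and 5 and no entry in replicates 2, 3 and 4. In the sham group it had 307, 214, 237 and 31 reads in replicates 1, 3, 4 and 5, and no entry in replicate 2. Libraries with and without it thus occur in both groups. Among the 6 libraries that list it, scaled junction reads ran from 31.3 to 399.5, a 12.8-fold range, where the median range over the 373 abundant circRNAs was 3.03-fold. At the lowest listed level, the unlisted libraries would have held 26.0 to 36.1 reads, and at the median listed level 209 to 290.4.

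Non-junction reads of RC3H2 did not share that range. The sources used here do not define them, and they are read here as reads touching the ends of a circRNA without crossing the junction itself. They numbered 167 and 147 in ovariectomized replicates 1 and 5, and 165, 131, 146 and 134 in sham replicates 1, 3, 4 and 5. Scaled in the same way by factors computed on the non-junction reads, they spanned a 1.36-fold range from 120.9 to 165.0. Sham replicate 5, with 31 junction reads, had 134 non-junction reads, within the range of the others. It held 4.32 non-junction reads per junction read, against 0.337 to 0.637 in the other 5 libraries. Over all libraries the RC3H2 circRNA had more junction than non-junction reads, 1487 against 890, as did 49 of the 373 abundant circRNAs (13.1%). For libraries where it is not listed the table gives no non-junction reads, and no other RC3H2 circRNA has an entry, so no value shows RC3H2 RNA there.

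**Figure D3:**
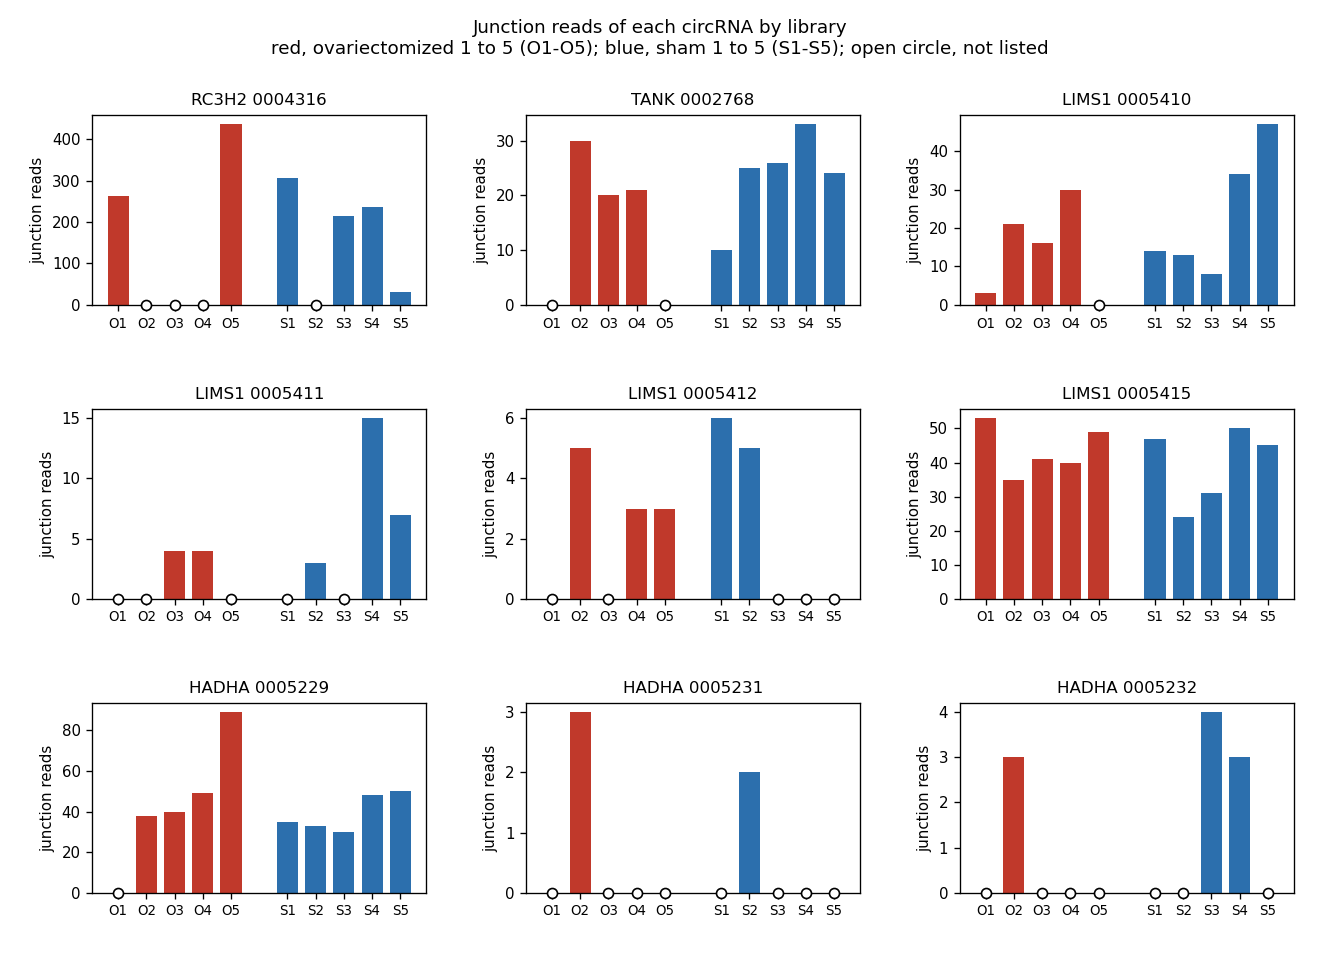
Junction reads of the 9 circRNAs by library (vertical axes differ), with ovariectomized replicates 1 to 5 in red on the left, sham replicates 1 to 5 in blue on the right and open circles for libraries without an entry. RC3H2 reads lie between 31 and 436 or are missing, and LIMS1 novel_circ_0005415 is listed in every library at 24 to 53 reads.

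The TANK circRNA was missing from 2 ovariectomized libraries. It had 30, 20 and 21 junction reads in ovariectomized replicates 2, 3 and 4, with no entry in replicates 1 and 5, against 10, 25, 26, 33 and 24 reads in sham replicates 1 to 5. The listed libraries of the groups overlapped, at 18.2 to 30.5 scaled reads in ovariectomized and 13.0 to 32.5 in sham libraries. At the lowest listed level, ovariectomized replicates 1 and 5 would have held 12.6 and 21.0 reads. Replicate 5 is the deepest library, with 67061 junction reads. Non-junction reads of TANK were 44, 36 and 43 in ovariectomized replicates 2 to 4, and 50, 71, 59, 41 and 56 in sham replicates 1 to 5. Their scaled values, 39.6 to 42.7 in the ovariectomized group and 42.3 to 65.1 in the sham group, overlapped, and with 3 ovariectomized libraries listed they entered no test. TANK has no other circRNA in the series libraries that could stand in for this one.

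The main HADHA circRNA was missing from a single library. novel_circ_0005229 had 38, 40, 49 and 89 junction reads in ovariectomized replicates 2 to 5 and no entry in replicate 1. In sham replicates 1 to 5 it had 35, 33, 30, 48 and 50. The 9 listed libraries were close together, with a 1.71-fold range from 32.3 to 55.2 scaled reads, below the 3.03-fold median of abundant circRNAs. Ovariectomized replicate 1 would have held 31.3 reads at the lowest listed level. The neighbouring circRNAs of HADHA did not appear there either. novel_circ_0005231 was listed with 3 reads in ovariectomized replicate 2 and 2 reads in sham replicate 2. novel_circ_0005232 had 3 reads in ovariectomized replicate 2, and 4 and 3 reads in sham replicates 3 and 4. These 15 reads make up the rest of the 427 junction reads of HADHA, and 0 of 3 HADHA circRNAs had an entry in ovariectomized replicate 1.

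LIMS1 kept one circRNA in every library while the others came and went. The exonic novel_circ_0005415 had 53, 35, 41, 40 and 49 junction reads in ovariectomized replicates 1 to 5, and 47, 24, 31, 50 and 45 in sham replicates 1 to 5. It gave 415 of the 656 LIMS1 junction reads. The intron-labelled novel_circ_0005410 had 3, 21, 16 and 30 reads in ovariectomized replicates 1 to 4 with no entry in replicate 5, against 14, 13, 8, 34 and 47 in sham replicates 1 to 5. It was therefore low or missing in ovariectomized replicates 1 and 5, and its listed scaled reads spanned a 15.3-fold range, against 2.12-fold for the exonic circRNA.

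The circRNAs that share the start of novel_circ_0005410 did not reach its usual level where it was missing. novel_circ_0005411 had 4 reads each in ovariectomized replicates 3 and 4, and 3, 15 and 7 in sham replicates 2, 4 and 5. novel_circ_0005412 had 5, 3 and 3 reads in ovariectomized replicates 2, 4 and 5, and 6 and 5 in sham replicates 1 and 2. In ovariectomized replicate 5, where novel_circ_0005410 would have held 29.4 reads at its median listed level and 5.00 at its lowest, novel_circ_0005412 had 3 reads and novel_circ_0005411 no entry. Summed over the 3 circRNAs with this start, scaled reads were 3.10, 26.4, 21.1, 32.1 and 1.86 in ovariectomized replicates 1 to 5, and 26.0, 25.3, 8.62, 48.2 and 54.5 in sham replicates 1 to 5. In the 2 libraries with the lowest sums the exonic circRNA went opposite ways: its 30.4 scaled reads in ovariectomized replicate 5 were the second lowest of the 10 libraries, and its 54.8 in ovariectomized replicate 1 the second highest. The 2 rare circRNAs were listed together in 2 libraries and both missing in 2, and at 3 to 15 reads a missing entry is common.

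**Figure D4:**
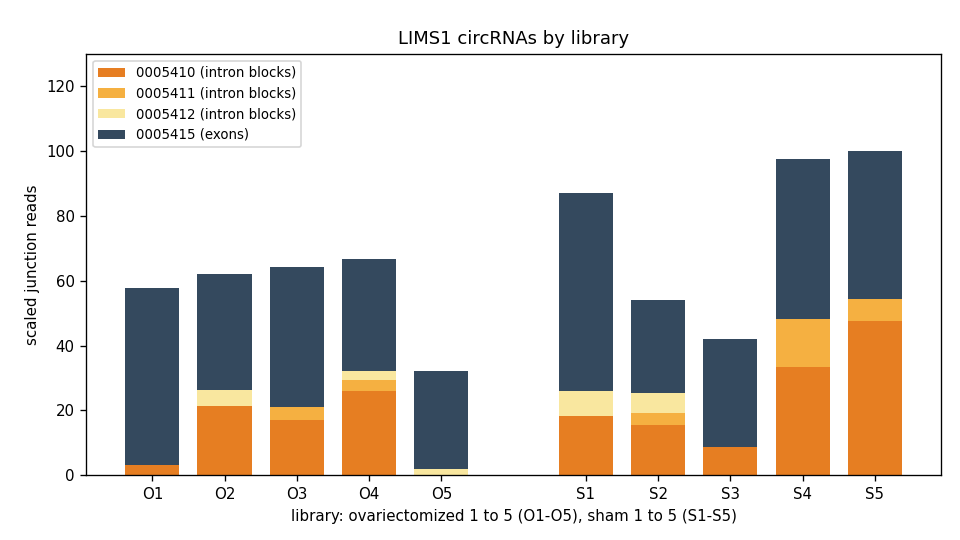
Scaled junction reads of the 4 LIMS1 circRNAs stacked by library, ovariectomized replicates 1 to 5 on the left and sham replicates 1 to 5 on the right. The exonic part stays between 28.9 and 61.2 scaled reads while the 3 circRNAs with a shared start range from 1.86 to 54.5.

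The balance of junction to non-junction reads set the LIMS1 circRNAs apart from each other. The intron-labelled novel_circ_0005410 had 4 to 12 non-junction reads in each listed library, and 0.382 non-junction reads per junction read over all libraries. The exonic novel_circ_0005415 had 73 to 147, and 2.38 per junction read. HADHA lay at the other end, with 44.9 non-junction reads per junction read for novel_circ_0005229, where the median over the abundant circRNAs was 3.62. The rare novel_circ_0005231 and novel_circ_0005232, with 5 and 10 junction reads in all, had 685.2 and 625.6. RC3H2 and TANK had 0.599 and 2.12.

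Between the groups, junction reads gave no call. A limma voom fit over all 738 circRNAs with enough reads called 0 (0%) at an adjusted p of 0.05, with 42 at an unadjusted p under 0.05, and the fit of sums over circRNAs called 0 of 753 host genes (0%), with 45 at an unadjusted p under 0.05. Of the 9 circRNAs, 5 entered the fit, and since junction reads chose the hosts their values are given as a description. HADHA novel_circ_0005229 averaged 35.7 ± 20.9 scaled reads in ovariectomized and 43.1 ± 7.16 in sham libraries (SD, n = 5 each). The fitted log2 fold change of -1.10 ± 1.10 (SE) became 0.080 without ovariectomized replicate 1. RC3H2 averaged 108.2 ± 148.1 scaled reads in ovariectomized and 179.0 ± 164.4 in sham libraries (SD, n = 5 each), with -1.33 ± 4.74 (SE) on the log2 scale, which became -4.48 without ovariectomized replicate 1 or 5 and ranged up to -0.81 without sham replicate 1. TANK averaged 14.0 ± 13.5 in ovariectomized and 25.6 ± 7.64 in sham libraries (SD, n = 5 each), with a fitted -3.42 ± 1.18 (SE) that became -1.30 without ovariectomized replicate 5. LIMS1 novel_circ_0005410 averaged 13.5 ± 11.4 in ovariectomized and 24.7 ± 15.6 in sham libraries (SD, n = 5 each), with a fitted log2 fold change of -3.33 ± 1.18 (SE) that became -0.59 without ovariectomized replicate 5. The exonic LIMS1 circRNA averaged 39.7 ± 9.60 in ovariectomized and 43.6 ± 12.9 in sham libraries (SD, n = 5 each). Its fold change was -0.14 ± 0.27 (SE) on the log2 scale, and 0.027 with library totals alone. A fitted fold change of a circRNA with missing libraries depends on the fit. A limma trend fit used a pseudocount of 1 on scaled reads and, unlike voom, did not weight values by precision. It gave -1.37 for novel_circ_0005410 and -1.93 for TANK, smaller in size than with voom. For RC3H2 it gave -2.64, larger in size, and for HADHA novel_circ_0005229 -1.05. The parts of the pseudocount and of the weights in these shifts were not separated. The authors' deposited table, whose fold change runs as sham over ovariectomized, gives log2 values of 0.88 for novel_circ_0005410 and 0.23 for novel_circ_0005229. It gives 0.87 for the TANK circRNA and 0.68 for that of RC3H2. The authors' own test gave each of them an adjusted p of 0.966.

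Non-junction reads of HADHA were lower after ovariectomy. At novel_circ_0005229 they numbered 1164, 1143, 1125 and 1713 in ovariectomized replicates 2 to 5, against 3358, 2772, 2900, 2392 and 1931 in sham replicates 1 to 5. The groups did not overlap, before or after scaling, but how many other circRNAs separate the groups in this way was not counted. Scaled means were 1336 ± 384.4 (SD, n = 4) in ovariectomized and 2617 ± 476.6 (SD, n = 5) in sham libraries, 0.511-fold. A two-sided exact permutation test, not among the planned tests, gave p = 0.0159, the smallest that 4 against 5 libraries allow. Groups that do not overlap always give this smallest value. The HADHA test is 1 of 3 such tests, unadjusted, and those of LIMS1 novel_circ_0005410 and novel_circ_0005415 gave exact p of 0.683 and 0.460. The other HADHA circRNAs, which lie beside this one and whose non-junction reads may count the same RNA, had 1008 and 1097 in ovariectomized replicate 2, against 2418 in sham replicate 2 for novel_circ_0005231 and 2848 and 2311 in sham replicates 3 and 4 for novel_circ_0005232. In bulk RNA, fewer cells of a type and less RNA per cell cannot be told apart. The summed junction reads of the muscle fiber markers, not scaled by library, were 1499 to 1643 in the ovariectomized group and 1313 to 2030 in the sham group. TTN gave 12696 of these 15826 reads. Scaled, TTN averaged 1117 ± 297.5 in ovariectomized and 1488 ± 276.9 in sham libraries (SD, n = 5 each; limma adjusted p = 0.760). Of the 6 fiber hosts tested, 4 had estimates below 0 and 2 above. The part of muscle fiber content in the HADHA difference was not tested.

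Across circRNAs the same difference was near the threshold. The planned limma fit took circRNAs listed in all 10 libraries and called 2 of 806 (0.248%). Of the 9 circRNAs only the LIMS1 exonic one entered it, with a log2 fold change of -0.15 ± 0.20 (SE) and a limma adjusted p of 0.831. A second limma fit, added after the HADHA values were seen, left out libraries without an entry and took circRNAs listed in at least 4 libraries of each group. It called 12 of 1355 (0.886%), with 173 at an unadjusted limma p under 0.05. Of the 12, 5 were higher and 7 lower after ovariectomy (0.517%). HADHA novel_circ_0005229, fitted without ovariectomized replicate 1, was among the 7, at -0.99 ± 0.22 (SE) on the log2 scale with a limma adjusted p of 0.0341. The call was lost without ovariectomized replicate 2, 3 or 4 (limma adjusted p of 0.157, 0.108 and 0.146) and without sham replicate 1, 2 or 3 (0.113, 0.0756 and 0.112), while the log2 fold change stayed between -1.18 and -0.90. The 12 calls became 5 without ovariectomized replicate 2, 0 without sham replicate 2 and 70 without sham replicate 4. LIMS1 novel_circ_0005410 was at -0.09 ± 0.51 (SE), with a limma adjusted p of 0.946.

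Scaled junction reads of novel_circ_0005229 overlapped between the listed libraries of the groups. It held 19.2 to 30.6 non-junction reads per junction read in ovariectomized libraries and 38.6 to 96.7 in sham libraries, without overlap. This ratio rests in part on the junction reads that chose HADHA. It was not tested, and how often it separates the groups at other circRNAs was not counted.

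**Figure D5:**
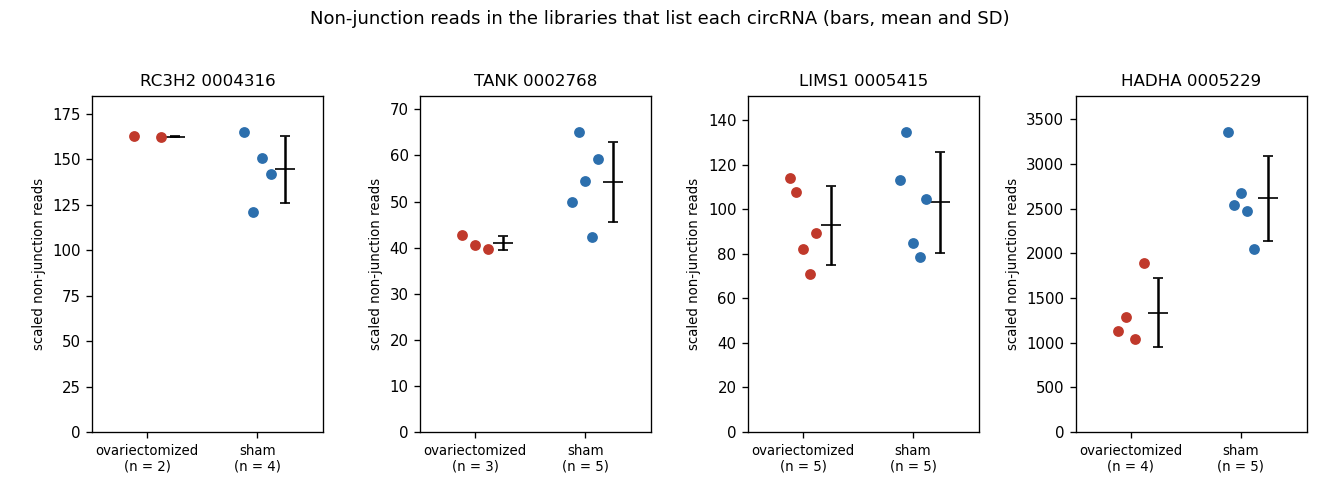
Scaled non-junction reads at 1 circRNA of each host in the libraries that list it, ovariectomized on the left of each panel in red and sham on the right in blue, with the mean and SD beside the points. HADHA values lie between 1036 and 1891 in ovariectomized and between 2044 and 3357 in sham libraries, and those of LIMS1 overlap.

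Other circRNAs shared the missing libraries of HADHA and TANK. Likeness was measured as Pearson's r of log2(scaled junction reads + 1) over the 10 libraries among circRNAs with at least 100 junction reads, in which a library entered as 0 weighs heavily. For HADHA the 3 most alike were circRNAs of LARP4B (r = 0.952), ACTN2 (r = 0.943) and UBE3D (r = 0.931), each missing from ovariectomized replicate 1 alone. ACTN2 encodes alpha-actinin-2 of the Z-disc. For TANK they were circRNAs of NBAS (r = 0.957), missing from the same 2 libraries, ARHGEF7 (r = 0.916), listed in all 10, and novel_circ_0005410 of LIMS1 (r = 0.863). For novel_circ_0005410 they were circRNAs of PICALM (r = 0.865), TANK (r = 0.863) and GSPT1 (r = 0.847). The 3 most alike to the RC3H2 circRNA were those of HACE1 (r = 0.883), LRP6 (r = 0.806) and FUT10 (r = 0.794), all listed in 10 libraries. None of the 373 abundant circRNAs was listed in exactly the libraries of the RC3H2 or TANK circRNA. One, of ACTN2, was listed in those of novel_circ_0005229, and 5 were listed in those of novel_circ_0005410, in which ovariectomized replicate 5 alone is missing.

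Host sums of the wider pathways gave no call in the limma fit, where 0% of all hosts were called. In the RNA decay list around RC3H2, 13 of 26 genes had a circRNA of which 5 entered the test. The 4 other than RC3H2 had estimates below 0 with a median log2 fold change of -0.48, against 51.8% of estimates below 0 and a median of -0.02 over all 753 hosts. PUM2, a Pumilio repressor of messenger RNAs, had 47.9 ± 7.80 scaled reads in ovariectomized and 77.8 ± 26.3 in sham libraries (SD, n = 5 each; limma adjusted p = 0.714). CNOT6L, a deadenylase subunit, had 23.9 ± 9.40 in ovariectomized and 37.0 ± 14.5 in sham libraries (SD, n = 5 each; limma adjusted p = 0.760). In the list of TBK1 and NF-kB signalling, 6 of 28 genes had a circRNA and TANK alone entered the test. NFKB1, which encodes a precursor of an NF-kB subunit, had the most other reads of that list, 54, with 4.48 ± 2.55 scaled reads in ovariectomized and 6.36 ± 4.97 in sham libraries (SD, n = 5 each).

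In the integrin adhesion list around LIMS1, 15 of 25 genes had a circRNA and 5 entered the test. Of the 4 other than LIMS1, 3 had estimates above 0 and 1 below, with a median of 0.25. TNS3, a tensin of focal adhesions, had 22.6 ± 10.2 scaled reads in ovariectomized and 39.4 ± 15.4 in sham libraries (SD, n = 5 each; limma adjusted p = 0.760). ITGA7, the main laminin-binding integrin chain of muscle fibers, had 88.1 ± 26.3 in ovariectomized and 66.8 ± 26.4 in sham libraries (SD, n = 5 each; limma adjusted p = 0.806). In the fatty acid oxidation list around HADHA, 11 of 22 genes had a circRNA and 4 entered the test. The 3 other than HADHA had estimates below 0, with a median of -0.37. ACADM, a medium-chain acyl-CoA dehydrogenase, had 9.81 ± 6.22 in ovariectomized and 14.0 ± 5.98 in sham libraries, and ACADL, its long-chain relative, 28.9 ± 10.2 in ovariectomized and 37.0 ± 12.9 in sham libraries (SD, n = 5 each), with limma adjusted p of 0.859 and 0.823.

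Estimates for non-junction reads at the fatty acid oxidation genes lay on both sides of 0. Of 7 circRNAs from 5 of these hosts in the second limma fit, 1 was called, that of HADHA, and 3 had negative estimates, with a median log2 fold change of 0.23. HADH, which encodes the dehydrogenase of the same pathway for shorter chains, had 3 circRNAs at 0.63 to 0.65 with limma adjusted p of 0.127 to 0.150, and these may count the same RNA. ETFB, an electron transfer subunit, was at -0.22 ± 0.17, ACADM at 0.23 ± 0.21 and ACADL at -0.09 ± 0.20 (SE), with limma adjusted p of 0.619, 0.684 and 0.891. None of 5 circRNAs of the RNA decay list and none of 9 of the integrin list was called, with medians of -0.15 and -0.06, against 0.02 over all 1355 circRNAs.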

How the data were processed

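The deposited profile packs, for each circRNA, whole-number counts of junction and non-junction reads with sample names into lists, another unit than a plain count column. These deposited counts were unpacked for the 10 samples; 10 other sample names in the lists were not used. The authors' second table gives, per the file headers, a mean normalized read signal per group, a log2 fold change and p-values. HISAT2 is named in the submitters' processing notes; those sources name no circRNA caller, build or annotation. Starts are counted from 1. Chromosome numbers came from the gene IDs in the ARS-UI_Ramb_v3.0 gene table, which held all 4 hosts. No sequence of the files' build was used here.

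Counts were fitted with limma voom (limma 3.58.1, R 4.3.3, statmod 1.5.0) and Benjamini-Hochberg adjustment. TMM trimmed 30% of log ratios and 5% of abundances per end. Tested circRNAs had at least 10 reads in at least 5 libraries and a total of at least 15, and held 68.0% of junction reads. For this filter of 10, reads were scaled by library totals alone to the median library. On simulated data for this comparison, 34.4% of 2-fold (771 tested) and 98.4% of 4-fold changes (754 tested) were recovered, and 0 of 10 unchanged sets gave a call. The simulation gave all circRNAs the same dispersion, 0.126, and modelled no missing entries. These shares therefore need not hold for circRNAs that lack libraries, such as those of the 4 hosts. Library totals limit precision. Alternatives covered scaling, filters, a replicate block and leaving out each library. Members and lists were chosen with earlier results of these data known. Named are all circRNAs of the 4 hosts, the 3 most alike per host, and the 2 other tested hosts of smallest p per list, or the one with most reads.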

Additional observations from a re-analysis of the deposited data

Results flagged for a closer look

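A search of 22 sets of 5 libraries for a lone library apart from its group found 2. Summed over its circRNAs, HADHA had 0 scaled junction reads in ovariectomized replicate 1, where the other ovariectomized libraries had 42.2 to 55.2. LIMS1 had 32.2 in ovariectomized replicate 5, where the others had 57.9 to 66.8. Both hosts were chosen for junction reads missing in these same libraries, so the values are a description, and the rate of about 1 in 20 sets that chance flags cannot be set against them.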

How the results depend on the processing

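The count of 0 circRNAs became 3 with a replicate block, 4 when 2 reads in 5 libraries sufficed and 30 without a filter; for host sums these were 1, 2 and 7. Under both looser filters the circRNA calls, but not the host calls, include TANK, whose junction reads chose it. Leaving out a library gave 0 to 0 circRNAs, 0 to 1 hosts, 0 to 39 circRNAs by non-junction reads and 0 to 70 in the second non-junction fit. The 2 non-junction calls became 0 with a replicate block, and the HADHA call was lost (limma adjusted p = 0.114). Same-numbered libraries correlated at -0.11 to 0.18 and 2 of 5 best with their own number. So few correlations cannot decide whether the numbers pair the samples. With the block, log2 fold changes reversed to 0.60 for the RC3H2 circRNA, 0.55 for its host sum, 0.019 for novel_circ_0005229, 0.011 for the HADHA sum and 0.071 for non-junction reads of novel_circ_0005410. The last was 0.15 and 0.071 without ovariectomized replicate 2 and sham replicate 5, and ranged from -0.33 to 0.15 over libraries left out. The exonic LIMS1 circRNA was 0.027 with library totals alone, and without ovariectomized replicate 1 novel_circ_0005229 was 0.080 (range -1.54 to 0.080) and the HADHA sum 0.094 (range -1.56 to 0.094). The share of abundant circRNAs lacking a library was 17.7% at a mean of 10 scaled reads and 3.97% at 50. Counting only entries of at least 10 reads, novel_circ_0005410 was listed in 7 libraries, and the RC3H2, TANK and main HADHA circRNAs in the same 6, 8 and 9. The cause of these changes was not tested. Low reads limit the rare LIMS1 and HADHA circRNAs.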

Other observations

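The second non-junction fit called 11 circRNA sites of other hosts beside that of HADHA, all given here after their values were seen. Higher after ovariectomy was that of GADL1, a decarboxylase gene, at 1.85 ± 0.28 (log2, SE), with a limma adjusted p of 0.00686. MB, which encodes myoglobin, was at 1.65 ± 0.31, and ANK3, a membrane skeleton adaptor, at 1.02 ± 0.20. COL15A1, a basement membrane collagen, was at 1.01 ± 0.22 and ASB15 at 0.84 ± 0.16. The limma adjusted p of these 4 ran from 0.0165 to 0.0283. Lower were those of ACACB, the muscle form of acetyl-CoA carboxylase, whose product restrains fatty acid entry into mitochondria, at -1.82 ± 0.29 and -1.46 ± 0.27, with limma adjusted p of 0.00686 and 0.0165. FAM13A was at -1.24 ± 0.25 and HSDL2, a peroxisomal enzyme gene, at -0.93 ± 0.19, both with a limma adjusted p of 0.0268. LOC101115115 had 2 such sites, at -1.15 ± 0.23 and -1.10 ± 0.20, with limma adjusted p of 0.0191 and 0.0165. All 12 calls were lost without sham replicate 2.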
